A study of Homo sapiens with 9 samples.

Results

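The kallikrein family was followed here as 10 genes of the deposited count table, KLK1, KLK2, KLK3, KLK4, KLK5, KLK6, KLK7, KLK10, KLK11 and KLK15, out of 28216 genes in all. The members were chosen by gene symbol, and all 10 were found. RNA was sequenced from PC3 and LNCaP cells, which are established lines from metastases of prostate cancer, in 9 libraries of 3 groups with 3 libraries each. PC3 cells (genotype WT, epithelial) grew in F12K medium with serum and had no treatment. LNCaP cells (clone FCG, genotype WT, epithelial) grew in RPMI medium and were moved to phenol red-free medium with charcoal-stripped serum, which holds little steroid, and then to 10 nM androgen or to vehicle (0.01% ethanol) for 48 h. The sample labels name the androgen as dihydrotestosterone (DHT), whereas the text of the study names R1881. No source says that the libraries of a group came from separate cultures, so p-values measure the spread between these libraries, which may be technical.

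Kallikreins are secreted serine proteases that are made as inactive precursors and switched on by removal of a short leading peptide, often by another kallikrein. Their genes stand side by side in a single cluster on the long arm of chromosome 19. KLK3 encodes prostate-specific antigen (PSA), the serum marker of prostate disease, which liquefies semen by cutting semenogelins, and KLK3, KLK2 and KLK4 are known as androgen-induced genes of the luminal prostate cell. Other members are best known from skin, brain and other epithelia.

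In GRCh38 with GENCODE 44, the cluster with its 16 kallikrein genes (the transcribed pseudogene KLKP1 included) covers 265 kb of chromosome 19, from 50819146 to 51084245. From KLK1 the order is KLK15, KLK3, KLK2, KLKP1, KLK4, KLK5, KLK6, KLK7, KLK8, KLK9, KLK10, KLK11, KLK12, KLK13 and KLK14. KLK3 (50854915 to 50860764) and KLK2 (50861568 to 50880567) lie on the plus strand, and all other genes of the cluster lie on the minus strand.

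The sequences before the start sites of KLK3 and KLK2 are shown because these genes had the highest androgen-treated levels of the family and share most of this sequence. Both are the 250 bases before the RefSeq start site on GRCh38.p14, plus strand, 5′ to 3′, with the best match to a palindromic androgen response element in capitals. The KLK2 window lies inside the longer KLK2 span of GENCODE.
KLK3, chr19:50854665-50854914: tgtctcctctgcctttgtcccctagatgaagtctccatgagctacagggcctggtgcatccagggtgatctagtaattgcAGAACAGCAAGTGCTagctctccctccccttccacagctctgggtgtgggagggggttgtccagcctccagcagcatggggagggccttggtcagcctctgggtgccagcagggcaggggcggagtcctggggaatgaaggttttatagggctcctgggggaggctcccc
KLK2, chr19:50873189-50873438: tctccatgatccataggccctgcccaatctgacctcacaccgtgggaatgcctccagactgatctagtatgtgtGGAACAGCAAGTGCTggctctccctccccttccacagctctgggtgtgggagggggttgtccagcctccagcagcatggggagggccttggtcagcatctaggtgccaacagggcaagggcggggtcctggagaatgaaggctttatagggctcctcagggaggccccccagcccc

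The windows were identical at 205 of 238 aligned bases (86.1%). The element searched for was AGAACA and TGTTCT with 3 free bases between them, which reads the same on both strands and has 12 fixed letters in 15 bases. The KLK3 match starts 170 bases before the start site and has 2 mismatches, and the KLK2 match starts 176 bases before it and has 3. They differ by A1G, with positions counted from 1 at the 5′ end of the match, KLK3 base first. The arm AGAACA was found in the KLK3 window and in none of the other member windows. RefSeq windows of 300 bases (250 before and 50 after the start site) were matched for 9 of the 10 members, with 15 windows in all, and KLK1 had none. The windows of the other 7 matched members had 4 to 6 mismatches, with 5 and 6 in the KLK4 windows. Of all 35116 RefSeq windows of this length, 1.41% held a match with at most 2 mismatches, 10.8% with at most 3, and 14.8% held the arm AGAACA on either strand. A match of letters describes the window and says nothing about binding.

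The depth of the libraries lay between 17397706 and 25640325 counts on genes (median 21434125). A count of 0 allows up to 3 counts, which is 0.117 to 0.172 CPM (counts scaled to equal library sizes) across the libraries and takes in only the error of counting. The levels below are CPM scaled with TMM factors over all 9 libraries, as mean ± SD. Summed markers of PC3 cells reached 0.362% to 0.819% of their PC3 level in the LNCaP libraries, with the highest value in androgen-treated replicate 1. Summed LNCaP markers reached 12.2% to 16.2% of the androgen-treated level in PC3 cells and 43.6% to 46.4% in vehicle-treated libraries, so the sum also differed with androgen. Of the 9 markers, 8 were at least 2-fold lower in PC3 than in androgen-treated cells and 6 than in vehicle-treated cells (edgeR adjusted p under 0.05). HOXB13 went the other way (log2 fold changes 0.49 and 0.14), as SPDEF did against vehicle-treated cells (0.48). The prostate membrane antigen gene FOLH1 had 0, 1 and 7 counts in PC3 cells against 20441 to 25204 in LNCaP cells.

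KLK3, KLK2 and KLK4 carried nearly all kallikrein reads of LNCaP cells, rose with androgen, and were close to absent from PC3 cells. KLK15 stood far lower with the same order of groups. KLK5, KLK6 and KLK10 had few reads and were highest in PC3 cells. Within LNCaP cells KLK5 had more reads with androgen than with vehicle, as KLK3 did. KLK1, KLK7 and KLK11 never passed 4 counts in a library.

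**Figure D1:**
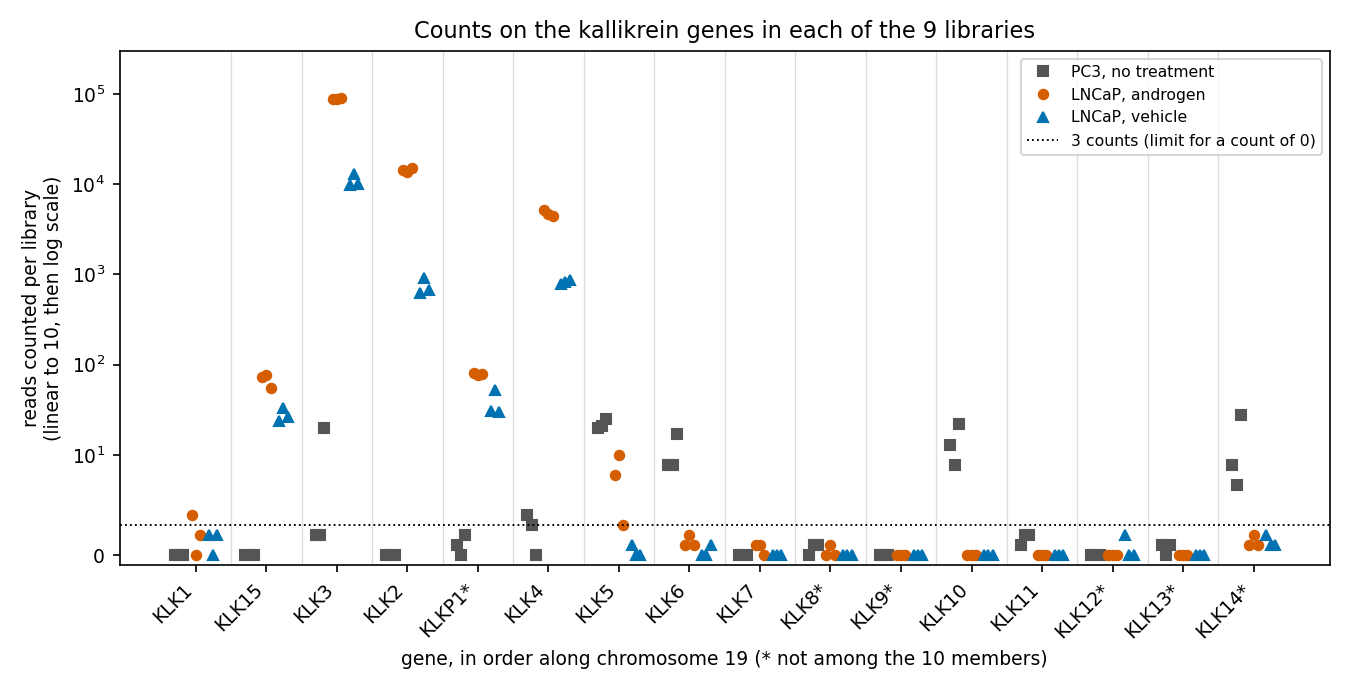
Reads counted on each of the 16 kallikrein genes (vertical axis, reads per library, linear to 10 and logarithmic above) in cluster order along chromosome 19 (horizontal axis), with 1 point per library and a dotted line at 3 counts. KLK3 reaches 86989 to 88995 counts in androgen-treated LNCaP libraries, while KLK5, KLK6, KLK10 and KLK14 are highest in PC3 libraries, with 7 to 28 counts.

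KLK3 had 88658, 86989 and 88995 counts in the androgen-treated LNCaP libraries and 9831, 12789 and 9925 in the vehicle-treated libraries. In PC3 cells it had 2, 2 and 20 counts. PC3 replicate 3 stood above the other PC3 replicates. The level of KLK3 was 4250 ± 261 CPM (SD, n = 3) with androgen, 574 ± 111 CPM (SD, n = 3) with vehicle and 0.319 ± 0.408 CPM (SD, n = 3) in PC3 cells. KLK3 alone took 0.378% to 0.422% of all reads counted in androgen-treated libraries, and 0.0531% to 0.0735% in vehicle-treated libraries.

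KLK2, which encodes human kallikrein 2, the closest relative of PSA and able to activate its precursor, had 14426, 13739 and 15238 counts with androgen. With vehicle it had 621, 914 and 667 counts. No KLK2 read was counted in any PC3 library. The level of KLK2 was 697 ± 63.4 CPM (SD, n = 3) with androgen against 38.9 ± 9.81 CPM (SD, n = 3) with vehicle.

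KLK4 encodes a protease of prostate and of developing enamel, where it clears matrix proteins. It had 5113, 4662 and 4469 counts with androgen and 779, 833 and 863 with vehicle. In PC3 cells 4, 3 and 0 counts were found. KLK4 was the steadiest of KLK3, KLK2 and KLK4 between androgen-treated libraries, with 228 ± 2.52 CPM (SD, n = 3), against 43.5 ± 2.46 CPM (SD, n = 3) with vehicle.

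KLK15, which encodes prostinogen, another activator of the PSA precursor in the test tube, had 73, 77 and 55 counts with androgen. It had 24, 33 and 26 counts with vehicle and 0 in every PC3 library. The order of groups was that of its neighbour KLK3, at 3.28 ± 0.514 CPM (SD, n = 3) with androgen and 1.46 ± 0.303 CPM (SD, n = 3) with vehicle. Only KLK3, KLK2 and KLK4 exceeded 3 CPM in at least 3 libraries, the limit for the main tests, so 7 of the 10 members were not tested there. KLK3, KLK2 and KLK4 passed it in the comparisons with PC3 cells only through their LNCaP libraries.

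**Figure D2:**
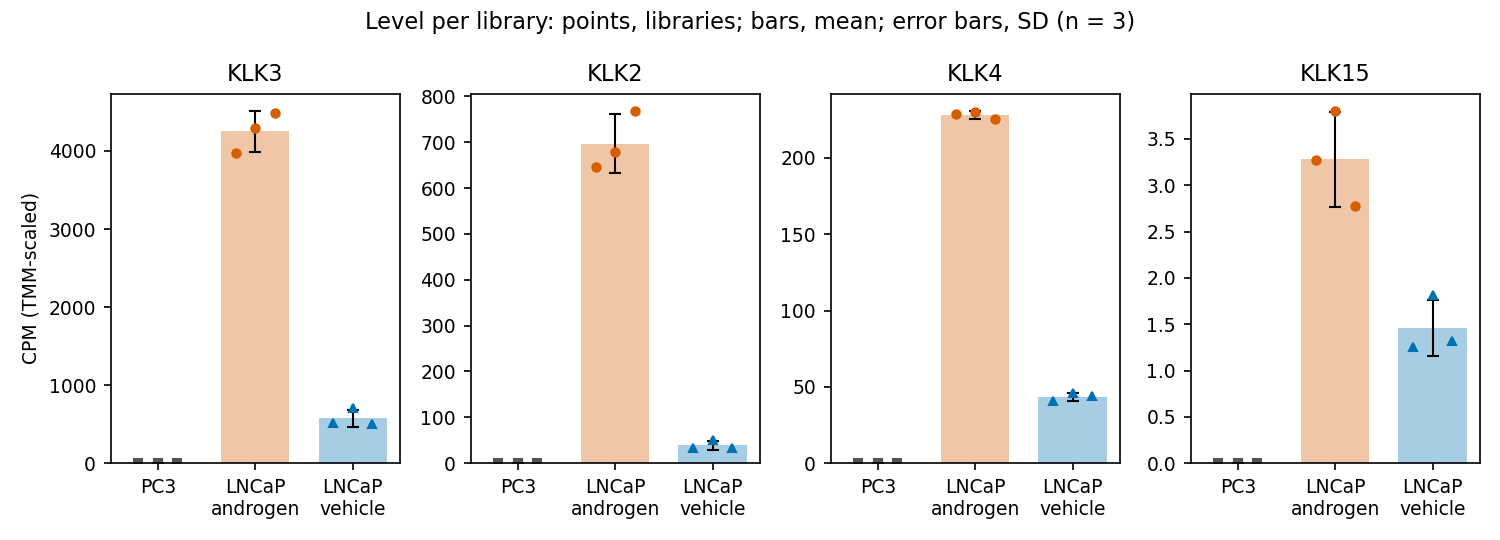
Levels of KLK3, KLK2, KLK4 and KLK15 (vertical axes, TMM-scaled CPM from 0, a different scale in each panel) in PC3, androgen-treated LNCaP and vehicle-treated LNCaP libraries, with points for libraries, bars for means and error bars for SD (n = 3). In each panel the androgen-treated points are the highest, and PC3 points lie at or near 0.

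The first comparison asked how the family responded to androgen in LNCaP cells. A gene was called where its fold change was at least 2 and its adjusted p under 0.05 in edgeR's quasi-likelihood test. KLK3, KLK2 and KLK4, all 3 members tested, were called higher with androgen, beside 6.54% of all 11697 genes tested called higher. KLK2 rose most, by a log2 fold change of 4.17 (SE 0.12, edgeR adjusted p = 7.25e-12), which is 18-fold with a 95% interval of 15 to 21.6. KLK3 rose 7.41-fold (6.35 to 8.66), a log2 fold change of 2.89 (SE 0.10, edgeR adjusted p = 4.6e-11). KLK4 rose 5.26-fold (4.90 to 5.64), a log2 fold change of 2.39 (SE 0.05, edgeR adjusted p = 1.95e-13). Among the 11697 genes ordered by fold change, KLK2 stood at place 57, KLK3 at 120 and KLK4 at 180. In bulk RNA, a change in the number of cells that express a gene and a change in RNA per cell cannot be told apart.

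The members with few reads could be tested only without the limit on low counts, where 6.66% of 20429 genes were called higher with androgen. KLK15 was then called higher, with a log2 fold change of 1.19 (SE 0.20, edgeR adjusted p = 2.01e-05), or 2.28-fold (1.70 to 3.05). KLK5, which encodes a trypsin-like protease of skin shedding, had 8, 10 and 3 counts with androgen against 1, 0 and 0 with vehicle. It was also called (edgeR adjusted p = 0.00167), and the ratio of its summed levels was 19.2 with a 95% counting interval of 3.08 to 793. The 3 androgen-treated libraries held 15.8% to 51.7% of the mean KLK5 level of PC3 cells, against the share of 0.362% to 0.819% for the PC3 markers in LNCaP libraries. The part of RNA from other libraries in this count was not tested beyond these values.

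KLK1, KLK6 and KLK7 were not called with androgen. KLK1 encodes tissue kallikrein, which frees kinins from kininogen, and had 4, 0 and 2 counts with androgen and 2, 0 and 2 with vehicle, a ratio of 1.37 (95% counting interval 0.325 to 6.60). KLK6, a protease abundant in brain, had 1, 2 and 1 counts with androgen and 0, 0 and 1 with vehicle. KLK7, the chymotrypsin-like partner of KLK5 in skin, had 1, 1 and 0 counts with androgen and none with vehicle. KLK10 and KLK11 had no count in any LNCaP library. At this depth no difference was detectable for these members.

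**Figure D3:**
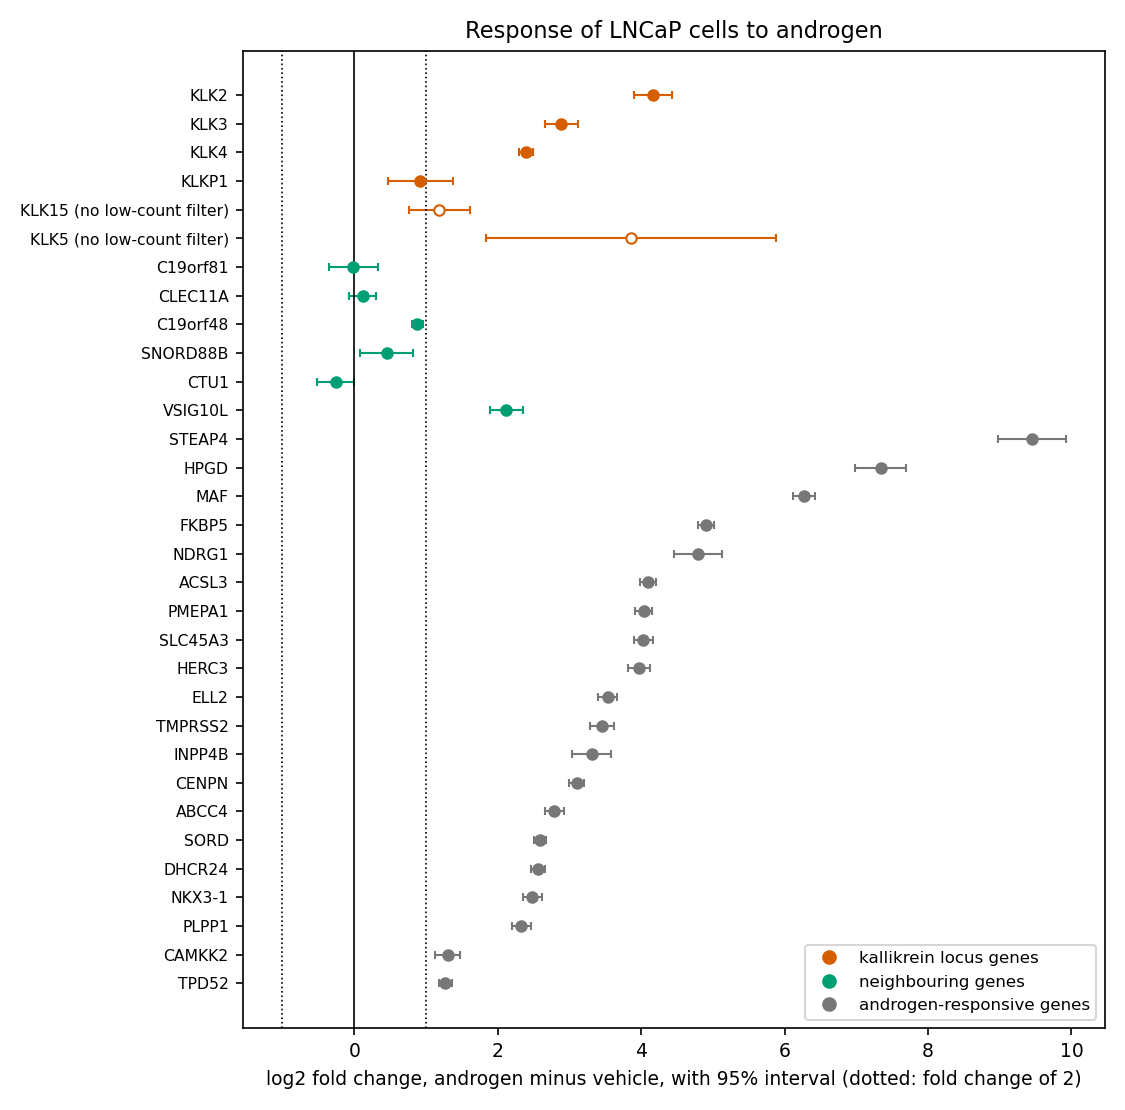
Log2 fold change of androgen-treated over vehicle-treated LNCaP cells (horizontal axis) with 95% intervals for genes of the kallikrein cluster, their tested neighbours and 20 known androgen-responsive genes (vertical axis), where open points come from the test without a limit on low counts and dotted lines mark a fold change of 2. KLK2 (4.17), KLK3 (2.89) and KLK4 (2.39) lie right of the dotted line, as VSIG10L does among the neighbours and all 20 androgen-responsive genes do.

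Because KLK2 rose more than KLK3 or KLK4, the make-up of the kallikrein reads differed between LNCaP groups. The ratio of KLK3 to KLK2 counts was 6.15, 6.33 and 5.84 in androgen-treated libraries and 15.8, 14.0 and 14.9 in vehicle-treated libraries. The ratio of KLK2 to KLK4 counts was 2.82, 2.95 and 3.41 with androgen and 0.797, 1.10 and 0.773 with vehicle. The ratio of KLK3 to KLK4 counts was 17.3, 18.7 and 19.9 with androgen and 12.6, 15.4 and 11.5 with vehicle. Each of these 3 ratios gave p = 0.10 in a two-sided exact permutation test, before any adjustment over the 3 ratios. It is the smallest p that 3 libraries against 3 allow when they are exchanged freely. Exchange within same-numbered pairs was added after seeing the data. It gave p = 0.25 for each ratio (two-sided exact permutation test), the smallest that 3 pairs allow. Whether the replicate numbers pair these libraries was not settled. Per kilobase of the canonical transcript, KLK2 lay above KLK4 in every androgen-treated library (ratio 1.41 to 1.71) and below it in every vehicle-treated library (0.387 to 0.549). KLK3 was the highest in both, at 2903 ± 178 CPM per kb (SD, n = 3) with androgen and 391.9 ± 75.9 CPM per kb (SD, n = 3) with vehicle. Of all reads on kallikrein genes, not corrected for length, KLK2 took 13.0% to 14.0% with androgen and 5.50% to 6.25% with vehicle, and KLK3 took 81.8% to 82.4% and 86.2% to 87.5%.

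**Figure D4:**
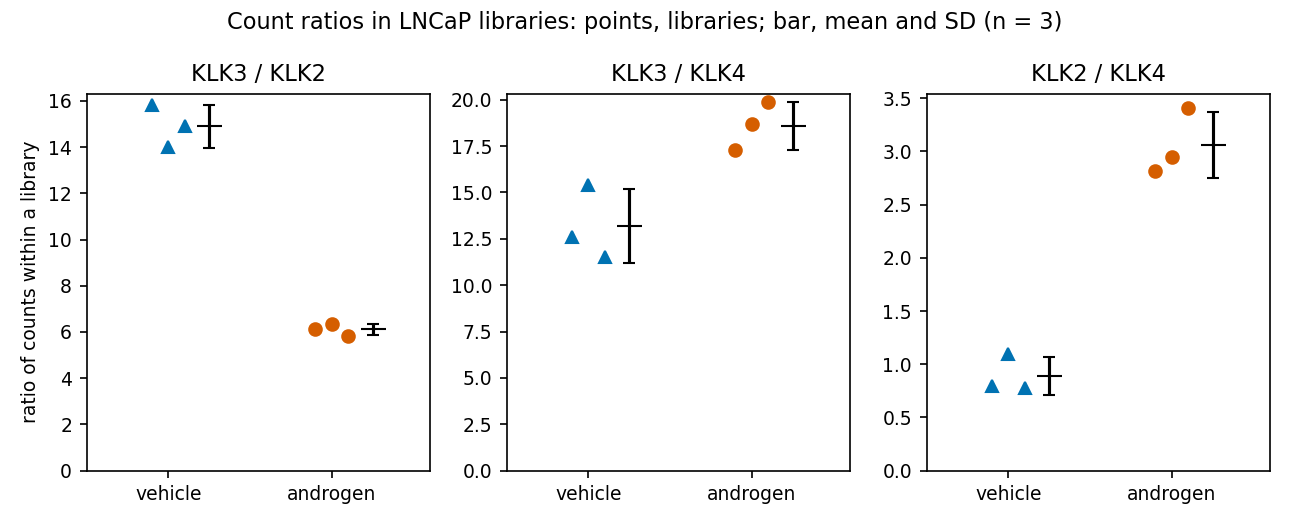
Ratios of counts of KLK3 to KLK2, KLK3 to KLK4 and KLK2 to KLK4 within each LNCaP library (vertical axes, from 0) with vehicle or androgen (horizontal axes), as points for libraries and a bar with mean and SD (n = 3). KLK3 to KLK2 is 6.11 on average with androgen against 14.9 with vehicle, and KLK2 to KLK4 is 3.06 against 0.889.

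Vehicle-treated replicate 2 was the highest of its group for KLK3, KLK2, KLK4 and KLK15, at 702, 50.2, 45.7 and 1.81 CPM. Without it the log2 fold changes with androgen were 3.04 for KLK3, 4.38 for KLK2 and 2.42 for KLK4. All reads on the cluster together made up 0.462% to 0.516% of an androgen-treated library and 0.0617% to 0.0840% of a vehicle-treated library. In PC3 libraries they made up 0.000239% to 0.00046%.

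The other comparisons set PC3 cells against each LNCaP group, which also differ in medium and serum, so that line and culture cannot be told apart. No source names the LNCaP libraries used in the study for this purpose. Both use the same PC3 libraries, and the androgen-treated and vehicle-treated libraries also enter the first comparison. KLK3, KLK2 and KLK4 were called lower in PC3 cells against either group. They had entered the test only through their LNCaP libraries, so that their direction was fixed by the limit on low counts. Their calls therefore say nothing of the family. Of all genes tested, 22.1% of 12541 were called lower against androgen-treated cells and 21% of 12686 against vehicle-treated cells.

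The log2 fold change of KLK3 in PC3 cells was -13.65 (SE 0.43, edgeR adjusted p = 6.57e-08) against androgen-treated cells and -10.74 (SE 0.43, edgeR adjusted p = 2.09e-07) against vehicle-treated cells. These sizes rest on 24 PC3 counts, 20 of them in replicate 3, and without that library the values were -15.43 and -12.55. Without replicate 1 they were -13.05 and -10.18. In the same PC3 replicate 3 FOLH1 had 7 counts, and as shares of the mean androgen-treated level its KLK3 reached 0.019% and its FOLH1 0.028%, whereas KLK2 and KLK4 had 0 counts there. The part of LNCaP RNA in these counts was not tested.

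KLK4 differed by -11.15 (SE 0.23, edgeR adjusted p = 1.57e-08) from androgen-treated and by -8.73 (SE 0.29, edgeR adjusted p = 8.47e-08) from vehicle-treated cells on the log2 scale. Without PC3 replicate 3, which had 0 counts, the values were -10.45 and -8.06. With no KLK2 count in PC3 cells, only bounds hold, set with 3 counts per PC3 library: KLK2 was at least 4951-fold lower than in androgen-treated cells and at least 250-fold lower than in vehicle-treated cells (edgeR adjusted p = 5.07e-08 and 3.57e-06). Among genes ordered from the largest fall, KLK2, KLK3 and KLK4 stood at places 1, 14 and 77 of 12541 against androgen-treated cells. Against vehicle-treated cells they stood at places 25, 83 and 189 of 12686. These places describe size alone, since the limit on low counts fixed the direction, and the fitted values of KLK2 depend on the prior count. KLK15, tested without the limit on low counts (20.4% and 20% of genes called lower against the androgen-treated and vehicle-treated group), was at least 21.3-fold lower than with androgen and at least 9.65-fold lower than with vehicle. Its edgeR adjusted p-values were 1.01e-06 and 2.33e-05. With no PC3 count, KLK15 entered this test only through its LNCaP libraries, so that its direction was fixed as well.

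KLK5, KLK6 and KLK10 were higher in PC3 cells than in either LNCaP group in the test without the limit on low counts, in which 22.5% of 21303 genes were called higher against androgen-treated cells and 21.1% of 21238 against vehicle-treated cells. KLK5 had 20, 21 and 25 counts in PC3 cells, and the log2 fold change was 1.41 (SE 0.38, edgeR adjusted p = 0.00753) against androgen-treated cells. Against vehicle-treated cells, with 1 count in all, the ratio was 51.0 (95% counting interval 8.84 to 2045, edgeR adjusted p = 4.4e-05). Mean KLK5 levels were 0.896 ± 0.101 in PC3, 0.334 ± 0.172 in androgen-treated LNCaP and 0.0175 ± 0.0303 CPM in vehicle-treated LNCaP cells (SD, n = 3 each). Androgen-treated replicate 3 had 3 counts, which a count of 0 allows, so not all single LNCaP libraries were separated between treatments.

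KLK6 had 9, 9 and 17 counts in PC3 cells. The ratio to androgen-treated cells was 7.41 (95% counting interval 2.65 to 28.7, edgeR adjusted p = 0.00148) and to vehicle-treated cells 27.1 (4.55 to 1099, edgeR adjusted p = 0.000952). KLK10, which encodes a kallikrein lost in several carcinomas and regarded as a candidate tumour suppressor, had 13, 9 and 22 counts in PC3 cells and none in LNCaP cells. It was at least 2.59-fold higher than in androgen-treated cells and at least 2.38-fold higher than in vehicle-treated cells (edgeR adjusted p = 0.000443 and 0.000829). KLK10 entered this test only through its PC3 libraries, so that its direction was fixed. Each of these levels stayed under 1 CPM, and PC3 replicate 3 had the highest count of each gene.

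KLK11, a trypsin-like kallikrein of prostate and other glands, had 1, 2 and 2 counts in PC3 cells and was not called (edgeR adjusted p = 0.0546 and 0.0579). KLK1 and KLK7 had no count in PC3 cells and were not called either (edgeR adjusted p = 0.0601 for KLK1 and 0.18 for KLK7 against androgen-treated cells). Of the 6 other genes of the cluster, KLK14 had 9, 7 and 28 counts in PC3 cells and 1 or 2 in each LNCaP library, a ratio of 9.31 (95% counting interval 3.39 to 35.7) over androgen-treated and 8.50 (3.10 to 32.6) over vehicle-treated cells. KLKP1 followed the prostate genes, with 81, 76 and 78 counts with androgen, 31, 52 and 30 with vehicle and 1, 0 and 2 in PC3 cells. Its log2 fold change with androgen was 0.92 (SE 0.21, edgeR adjusted p = 0.00136), under a fold change of 2. KLK8, KLK9, KLK12 and KLK13 had at most 2 counts in a library.

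Reads that could have been shared between family members were few. No 74-nt stretch of the KLK3 or KLK4 transcripts was found again at another place of the genome or in another gene's transcripts, while 0.268% of the KLK2 and 1.61% of the KLK10 stretches were. KLK8 and KLK9, in contrast, shared 31.5% and 91.3% of their stretches, so their near-zero counts are uncertain. Reads on the opposite strand were 0.415% of all reads on KLK3, 0.428% on KLK2 and 0.6% on KLK4.

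Kallikreins are held in check by serpins and Kunitz and Kazal inhibitors, which bind the active site. Of 12 inhibitor genes listed, 3 had enough reads to test, and none was called with androgen by edgeR's quasi-likelihood test, the DESeq2 Wald test or edgeR's likelihood ratio test. All 3 had an unadjusted p under 0.05 in each of these tests, and SPINT1 and SPINT2 missed only the fold change of 2 (edgeR adjusted p = 1.82e-08 and 4.34e-05). SPINT1 and SPINT2, membrane Kunitz inhibitors, had log2 fold changes with androgen of 0.61 (SE 0.04) and 0.26 (SE 0.04). Both were called lower in PC3 cells, by -2.57 (SE 0.07) for SPINT1 and -1.5 (SE 0.10) for SPINT2 against androgen-treated cells, and by -1.94 (SE 0.06) and -1.22 (SE 0.10) against vehicle-treated cells on the log2 scale. The intracellular serpin gene SERPINB6 was not called in any comparison.

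Of 17 genes for kallikrein substrates and the kinin system, 4 were tested in LNCaP cells. Beside 7.49% of all genes called lower with androgen, FN1 (fibronectin) and F2R (the thrombin receptor PAR1) were called lower, with log2 fold changes of -1.99 (SE 0.06) and -1.08 (SE 0.10). F2RL1, which encodes PAR2, a receptor that kallikreins can cleave, was called higher, with 1.79 (SE 0.05). The same 4 genes, IGFBP3 included, had enough reads in both lines and were called higher in PC3 cells than in either LNCaP group, beside 24% and 22.2% of all genes against the androgen-treated and vehicle-treated group. Their log2 fold changes were 4.72 for F2R, 3.92 for FN1, 2.25 for F2RL1 and 1.22 for IGFBP3 against androgen-treated cells, and 3.66, 1.95, 4.06 and 1.83 against vehicle-treated cells. F2RL1 had 533 ± 2.40 CPM (SD, n = 3) in PC3 cells, 113 ± 2.43 (SD, n = 3) with androgen and 32.5 ± 1.56 (SD, n = 3) with vehicle, and FN1 had 1642 ± 418, 109 ± 9.03 and 432 ± 23 CPM (SD, n = 3 each). IGFBP3, IGFBP4 and IGFBP5 encode carriers of insulin-like growth factors that kallikreins can cut. IGFBP4, IGFBP5, PLAU (urokinase) and PTHLH entered the test only through their PC3 libraries, so that their direction was fixed by the limit on low counts and their calls say nothing of the list. Among listed genes too low to test, KNG1 (kininogen) had 8 to 20 counts per LNCaP library and none in PC3 cells, and KLKB1 (plasma kallikrein) had 2 to 9 and none.

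The members were also set beside 20 genes known to respond to androgen, a list chosen with earlier results of these data known. Its counts and medians therefore describe these genes and are no test. All 20 were called higher with androgen, beside 6.54% of all genes, with a median log2 fold change of 3.49 against -0.01 for all genes. KLK2 (4.17) lay above this median, and KLK3 (2.89) and KLK4 (2.39) lay below it. The immunophilin gene FKBP5 had 4.90 (SE 0.05) and the membrane protease gene TMPRSS2 3.45 (SE 0.08). In PC3 cells 19 of 20 were called lower than in androgen-treated cells, beside 22.1% of all genes (median log2 fold change -4.39). Against vehicle-treated cells 10 of 19 tested were called lower, beside 21% of all genes, with a median of -1.21. INPP4B, HPGD, ELL2 and NDRG1 were called higher, a share of the list near the 22.2% of all genes. The log2 fold changes of KLK3 and KLK4 in PC3 cells, from -8.73 down to -13.65, were lower than both medians. Since the limit on low counts had fixed the direction of KLK3 and KLK4, this order is a description and no test.

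Of 21 genes of the table within 250 kb of the cluster, 6 passed the limit on low counts. VSIG10L was called higher with androgen, by 2.12 (SE 0.11, edgeR adjusted p = 1.3e-09), from 4.41 ± 0.538 CPM with vehicle to 19.2 ± 1.23 CPM with androgen (SD, n = 3 each). C19orf48 had a log2 fold change of 0.88 (SE 0.04, edgeR adjusted p = 1.38e-10), and SNORD88B, CLEC11A, C19orf81 and CTU1 had 0.46, 0.12, -0.01 and -0.26, none of them called. Against androgen-treated cells, PC3 cells had log2 fold changes of -2.50 for CLEC11A, -1.97 for C19orf81, -1.82 for SNORD88B, -1.5 for C19orf48, -0.67 for VSIG10L and 1.71 for CTU1. Of these values, that of VSIG10L was not called. Against vehicle-treated cells they were -2.36 for CLEC11A, -1.96 for C19orf81, -1.34 for SNORD88B, 1.47 for CTU1 and 1.47 for VSIG10L, all called, and -0.60 for C19orf48, not called. The largest fall among these neighbours was smaller than that of KLK3, KLK2 or KLK4. The limit on low counts had fixed the direction of KLK3, KLK2 and KLK4, so this order describes size alone and is no test.

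The genes with a pattern most like KLK3 were sought by Pearson correlation of log2(CPM + 0.5) over the 9 libraries among 12842 genes, as a description. The libraries fall into 3 groups, so these values mostly reflect group differences. HS6ST1 (0.9996), ARFGEF3 (0.9995), TMC4 (0.9995), THRB (0.9994) and RBM47 (0.9994) came closest. KLK4 reached 0.9950 at rank 142, and KLK2 0.9814 at rank 803. The correlation takes no account of the size of a change. HS6ST1 had 54.2 CPM with androgen, 37.1 with vehicle and 10.2 in PC3 cells, where KLK4 had 228, 43.5 and 0.096.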

How the data were processed

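RNA-seq counts of 9 libraries were analysed. Per the labels, the authors' processing notes name cutadapt 4.1, STAR 2.7.7a and UMI-tools 1.1.2 with hg38, and the study's methods name other versions. The authors deposited counts, whole numbers of reads per gene symbol without normalization. All 253944 values equalled the forward-strand STAR counts, and 0 columns were left out.

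Members and gene lists were chosen with earlier results of these data known. All 10 members are named, genes of other lists where called, neighbours where tested, and the 5 genes most like KLK3. Outside this rule, the remaining cluster genes, HOXB13, SERPINB6, KNG1 and KLKB1 are also named. edgeR 4.0.16 (R 4.3.3) kept genes above 3 CPM in at least 3 libraries of a fit, computed TMM factors and ran a quasi-likelihood F test on the 6 libraries of each comparison, with Benjamini-Hochberg adjustment over all genes tested. SE is the log2 fold change divided by the root of F. The study's batch term was left out, since no source used here names the batches. The tests were tested on simulated data. Alternatives were DESeq2 1.42.0 size factors and Wald test, edgeR's likelihood ratio test, a replicate block, no filter, the adjusted p alone, unstranded counts, all 9 libraries in 1 fit, and leaving out each library.

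Over 10910 genes, deviations from the group means in same-numbered LNCaP libraries of both treatments had correlations of 0.164, 0.229 and 0.207. Differently numbered ones had -0.250 to 0.0869. However, PC3 replicate 3 and androgen-treated replicate 1, of different lines, reached 0.220, so this check cannot settle whether the LNCaP libraries are paired. The main tests took no account of pairing. Sequences come from RefSeq (GRCh38.p14).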

Additional observations from a re-analysis of the deposited data

How the results depend on the processing

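KLK3, KLK2 and KLK4 were called in the same direction in all 3 comparisons under DESeq2 size factors and the DESeq2 Wald test. The same held for edgeR's likelihood ratio test, unstranded counts and all 9 libraries in 1 fit. The adjusted p alone could lose no call, since it only drops the fold change limit. In the comparisons with PC3 cells the limit on low counts fixed the direction, so agreement of direction there adds nothing. Under the replicate block 3 members were called in each comparison, and the block changed no call of a member. Pairing was not settled for the LNCaP libraries. Same-numbered PC3 and LNCaP libraries correlated with -0.193 to 0.0554 (androgen) and -0.196 to 0.0747 (vehicle). With no filter on low counts, 5 members were called with androgen in place of 3, 7 in PC3 against androgen-treated cells and 7 against vehicle-treated cells. Of all genes in that setting, 6.66% were called higher with androgen. In PC3 cells 22.5% were called higher and 20.4% lower against androgen-treated cells, and 21.1% and 20% against vehicle-treated cells. KLK2, KLK15 and KLK10 had no count in 1 of the lines, which fixed their direction between lines.

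Leaving out each library in turn gave 3 to 3 members with androgen and 0 to 4 in PC3 against androgen-treated cells and 0 to 3 in PC3 against vehicle-treated cells. The 0 arose whenever an LNCaP library was left out, because with 2 LNCaP libraries left the members could not exceed 3 CPM in 3 libraries. With a limit of 2 libraries, chosen after seeing the data, KLK3, KLK2 and KLK4 were called each time, and KLK15 entered the test and was called lower in PC3 cells (edgeR adjusted p = 0.000102) without androgen-treated replicate 3. In the comparison of androgen with vehicle, the limit of 3 libraries was kept when each library was left out. The log2 fold changes there ranged from 2.79 to 3.04 for KLK3, 4.04 to 4.38 for KLK2 and 2.33 to 2.42 for KLK4. The depth limits members under 3 counts per library. With stretches of 50 nt in place of 74, 0.217% of KLK3, 1.49% of KLK2 and 1.25% of KLK4 stretches were shared. Among the members with few reads, the shared part was 4.81% for KLK10, 2.75% for KLK11 and 2.05% for KLK7. KLK1, KLK5, KLK6 and KLK15 had no shared stretch. Whether shared stretches added to the few KLK10 counts was not tested.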
